A study of Mus musculus with 23 samples.

Results

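Adult cortex of mice with a valine in place of glycine at residue 34 of histone H3.3 (G34V) was compared with wild-type (WT) cortex. The comparison took every 10-week animal whose title carries the G34V or the WT genotype, 3 G34V and 6 WT animals, which are 9 of the 22 animals and 10 of the 23 libraries in the series, since 1 WT animal was sequenced as 2 libraries whose counts were summed. Per the labels the G34V animals were heterozygous (Hf3fa+/G34V, the labels' spelling of H3f3a) and the controls Hf3fa+/+, and all 9 were male. No treatment is named for either genotype. Animals with arginine (G34R, 3 animals) or tryptophan (G34W, 2 animals) at the same residue and age served to test whether a G34V level differed from that of another substitution. The sex field gives G34W animal 2 as female, while its title begins with M as those of male animals do, and the conflict was not resolved here. Libraries were made from total RNA of pulverised cortex after depletion of ribosomal RNA. The number in each title was taken as that of an animal, and nothing further in the labels says how the animals were bred.

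H3.3 is the histone variant that is placed into chromatin outside of DNA replication, so it builds up in cells that no longer divide, such as neurons. Residue 34 lies close to lysine 36 on the histone tail. Methylated lysine 36 marks the bodies of transcribed genes and some intergenic chromatin, and it is read by the DNA methyltransferase DNMT3A. Cortex is a mixed tissue of neurons, astrocytes, oligodendrocytes, microglia and vessel cells. In RNA from whole tissue, more cells of a type and more RNA per cell cannot be told apart, and this holds for every cell type named here.

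The 10 libraries held between 36.5 and 90.1 M counts, with 39.8, 45.4 and 49.2 M in the G34V animals. H3f3a itself (chromosome 1, 180800832 to 180813943, minus strand, GRCm38) was at 38.05, 41.5 and 39.1 CPM in G34V and at 39.8 to 47.3 CPM (median 42.3) in WT, and it did not pass the test (log2 fold change -0.12, SE 0.07, edgeR adjusted p = 0.464). A gene count does not tell the alleles apart, so the level is no check of the genotype. The 12 cortical marker genes tested summed to a median of 1612 CPM in G34V and 1684 CPM in WT. CPM is the count of a gene divided by the total of its library in M, after scaling of the libraries to each other. Markers of neighbouring tissue varied between animals. Choroid plexus genes summed to 152 to 938 CPM in WT, a range that held G34V animals 1 and 2, and to 1048 CPM in G34V animal 3. All 12 tested had positive fold changes (median 0.51), though none passed. Striatal genes summed to 582 to 717 CPM against 464 to 1072 CPM, and 13 of the 14 tested had negative fold changes (median -0.23), though none passed. Thalamic markers had 12 of 14 fold changes negative (median -0.34) and 2 that fell.

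Of 21274 genes tested, 335 rose and 570 fell in G34V at an adjusted p under 0.05 (quasi-likelihood F-test of edgeR, p adjusted by Benjamini and Hochberg). These 905 genes were 4.25% of those tested, 1.57% higher and 2.68% lower, and the median log2 fold change of all tested genes was 0.01. The changes were mostly small: 69 genes rose and 144 fell at least 2-fold. In 860 of the 905 genes the 3 G34V values lay outside the whole range of the 6 WT values. Protein-coding genes were called in 5.31% of cases, 313 higher and 520 lower of 15679. On the X chromosome 6 genes rose and 40 fell of 967 tested, so that 4.14% fell against 2.68% of all genes. Within 5 Mb of H3f3a, 4 of 79 tested genes were called, or 5.06%: Ahctf1, a nuclear pore component, rose (0.28), and Tmem63a (-0.41), Lefty2 (-2.56) and the pseudogene Gm5069 (-0.71) fell, with log2 fold changes in parentheses. Of these, calls ended for Ahctf1 without G34V animal 1 or 2 (0.0575 and 0.0633), Tmem63a without G34V animal 1 or 2 (0.0812 and 0.05497), and Gm5069 without G34V animal 1, 2 or 3 (0.0552 to 0.0927) (edgeR adjusted p).

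The number of called genes rested on each of the G34V animals. It was 497 without G34V animal 1, 513 without animal 2 and 628 without animal 3. All 3 G34V animals carry numbers from 1 short run of the animal numbers in the titles, which holds only 2 of the 6 WT animals. With runs of numbers as a block, 341 genes were called, 99 higher and 242 lower (1.60% of those tested), of which 321 were among the 905. Within that run alone, 3 G34V against 2 WT animals, 48 genes were higher and 164 lower, 1.04% of those tested (0.235% and 0.802%). Whether a run is a litter or a processing batch is not given in the sources used here.

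**Figure D1:**
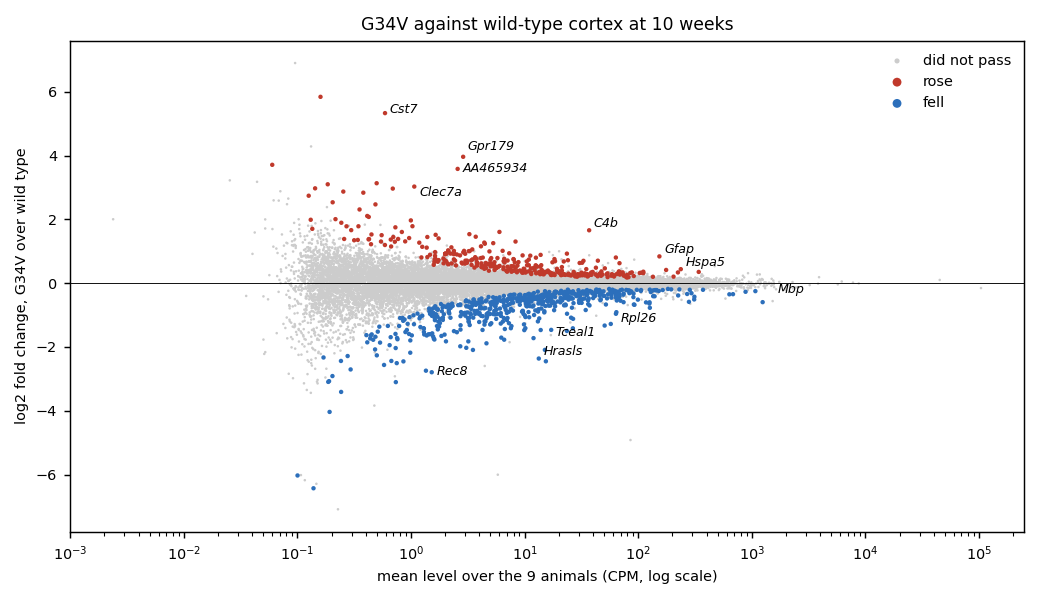
Each point is 1 of the tested genes, by its mean CPM over the 9 animals (log axis) and its log2 fold change of G34V over WT, with red for genes that rose and blue for genes that fell at an edgeR adjusted p under 0.05. Cst7 and Gpr179 are among the labelled rises, and Rec8, Hrasls and Tceal1 among the labelled falls.

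Microglia are the resident phagocytes of the brain. In injury and in models of neurodegeneration some of them take on a state called disease-associated, in which lysosomal, lipid-handling and adhesion genes rise under control of the receptor TREM2 and its adaptor TYROBP. Of 29 tested genes of that state, 12 rose and 1 fell in G34V, where 1.57% of all genes rose, and the list's median log2 fold change was 0.21. With runs of numbers as a block 7 rose, and within the run of the G34V animals 6 did.

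Cst7, which encodes the cathepsin inhibitor cystatin F, changed most. It was at 1.81, 1.42 and 1.85 CPM in G34V and at 0 to 0.0885 CPM (median 0.03399) in WT (log2 fold change 5.33, SE 0.37, edgeR adjusted p = 1.61e-07), so that it was near 0 in WT and present in every G34V animal. Itgax, the integrin chain CD11c, stood at 1.89, 1.03 and 2.03 CPM against 0.125 to 0.385 CPM (median 0.187, log2 fold change 2.97, SE 0.29, edgeR adjusted p = 7.27e-06). Clec7a, the beta-glucan receptor dectin-1, stood at 1.79, 1.59 and 4.32 CPM against 0.133 to 0.482 CPM (median 0.321, log2 fold change 3.03, SE 0.36, edgeR adjusted p = 1.32e-04), with animal 3 above the other G34V animals. Cd68, a lysosomal membrane protein of phagocytes, was at 10.9, 8.24 and 9.797 CPM against 4.35 to 5.11 CPM (median 4.79, log2 fold change 1.02, SE 0.097, edgeR adjusted p = 6.23e-06). In all 4 genes the G34V values stood clear of the WT values. The chemokines Ccl3 and Ccl6 rose with log2 fold changes of 2.87 and 1.404, and Ccl4 with 2.98 from very few counts. Tyrobp rose by 0.800 and Trem2 by 0.74 on the log2 scale, and the surface proteins Cd52 and Cd84 by 1.45 and 1.06. Ctsd, the aspartic protease cathepsin D and the most abundant member that rose, went from 295 to 329.6 CPM (median 314) to 407, 365 and 426 CPM (log2 fold change 0.35, SE 0.07, edgeR adjusted p = 0.003598).

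Not all members of the state rose. Gpnmb, a lysosomal glycoprotein that marks its late phase, fell: it stood at 1.19, 1.503 and 1.52 CPM in G34V and 1.99 to 2.83 CPM (median 2.29) in WT (log2 fold change -0.75, SE 0.19, edgeR adjusted p = 0.0316). Apoe was at 930.04, 978 and 986 CPM against 911 to 1020.1 CPM (median 970.04) and did not pass (-0.005, edgeR adjusted p = 0.981). Spp1, Lpl, Igf1, Lgals3 and Axl, which belong to the same state, did not pass, with log2 fold changes of -0.11, -0.15, 0.03, 0.55 and 0.17. The call ended on leaving out 1 animal for Trem2, Ccl4 and Gpnmb (edgeR adjusted p in parentheses here and in the lists that follow): Trem2 without G34V animal 3 (0.0988), Ccl4 without G34V animal 1 (0.225), and Gpnmb without G34V animal 1, 2 or 3 or WT animal 2 or 6 (0.0541 to 0.167).

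The homeostatic list holds genes of microglia at rest. Of its 18 tested members 7 rose and none fell at an adjusted p under 0.05, with a list median of 0.24. Of all genes 1.57% rose. Only 3 rose with runs of numbers as a block (0.465% of all genes did), and 2 within the run of the G34V animals (0.235%). Csf1r, the receptor on which microglia depend for survival, was at 117, 109 and 131 CPM against 91.1 to 98.3 CPM (median 96.1, log2 fold change 0.32, SE 0.06, edgeR adjusted p = 0.00279). Fcrls, Olfml3 and Ltc4s rose by 0.72, 0.69 and 1.03, and Slco2b1 and the fractalkine receptor Cx3cr1 by 0.32 and 0.303. P2ry12, the purinergic receptor of resting microglia, overlapped WT at 30.7, 27.6 and 33.2 CPM against 28.1 to 32.4 CPM (median 30.8) and did not pass (-0.01, edgeR adjusted p = 0.956). Tmem119 (0.26, edgeR adjusted p = 0.148) and Siglech (0.07, edgeR adjusted p = 0.843) did not pass either. A call ended for Cx3cr1 without G34V animal 1 or 3 or WT animal 2, 3, 4, 5 or 6 (0.0537 to 0.234). Markers of blood and infiltrating leukocytes, which share some transcripts with microglia, summed to 162 to 306 CPM in G34V and 169 to 358 CPM in WT, and none of 14 tested passed.

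Genes of phagocytosis and of complement, the proteins that tag material for uptake, rose as well. Of 25 tested genes of phagocytosis and the lysosome 14 rose and none fell (list median 0.39), where 1.57% of all genes rose. The count was 6 with runs of numbers as a block and 4 within the run of the G34V animals. Over all 9 animals 16 of the 25 had all 3 G34V values above all WT values, as did 4.23% of all genes. Lyz2, lysozyme, was at 11.8, 13.2 and 16.3 CPM against 4.84 to 6.59 CPM (median 5.58, log2 fold change 1.31, SE 0.14, edgeR adjusted p = 1.75e-05). Ctss, the protease cathepsin S, was at 82.8, 81.5 and 103 CPM against 45.3 to 54.98 CPM (median 51.5, log2 fold change 0.81, SE 0.09, edgeR adjusted p = 2.66e-05). Mpeg1, the pore-forming perforin-2, was at 29.98, 33.5 and 39.8 CPM against 13.9 to 20.9 CPM (median 18.3, log2 fold change 0.93, SE 0.11, edgeR adjusted p = 9.22e-05). The Fc receptor genes Fcgr3, Fcgr2b, Fcer1g and Fcgr1 rose by 0.68, 1.01, 0.55 and 0.71. Of 18 tested complement genes 8 rose, while 6 rose with runs of numbers as a block (0.465% of all genes rose there) and 3 within the run. The list summed to 289, 282 and 379.5 CPM in the G34V animals, and animal 3 was the highest of them in 16 of the 18 genes. C4b, which carries the cascade from the classical pathway to C3, was at 57.8, 55.005 and 90.8 CPM against 16.97 to 28.6 CPM (median 20.6, log2 fold change 1.66, SE 0.17, edgeR adjusted p = 1.36e-04). C3, on which all pathways meet, was at 1.59, 1.93 and 2.37 CPM against 0.257 to 0.772 CPM (median 0.511, log2 fold change 1.97, SE 0.29, edgeR adjusted p = 5.37e-04). C4b shares most of its sequence with C4a, which rose by 1.61, so counts may be split between them. The 3 chains of C1q, the sensor of the classical pathway, moved together, with log2 fold changes of 0.71 for C1qa, 0.702 for C1qb and 0.64 for C1qc. The receptors C5ar1 and C3ar1 rose by 2.31 and 0.75, and the pattern receptors Tlr2 and Tlr13 by 1.52 and 0.93. Of 18 tested cytokine, chemokine and Toll-like receptor genes 5 rose, 1 with the block, 3 without G34V animal 2 and 2 without G34V animal 3. Il1a of this list, the cytokine interleukin-1 alpha, rose from 0.351 to 0.6297 CPM (median 0.448) to 0.894, 1.22 and 1.05 CPM (log2 fold change 1.15, SE 0.28, edgeR adjusted p = 0.0276). Without 1 animal the calls of these ended: Fcer1g without G34V animal 3 (0.0782), Fcgr1 without G34V animal 1 or 3 or WT animal 1, 2, 3, 4, 5 or 6 (0.0567 to 0.304), C1qb without G34V animal 3 (0.0558), C3ar1 without G34V animal 2 or 3 (0.0526 and 0.135), and Il1a without G34V animal 1, 2 or 3 or WT animal 4 (0.0539 to 0.147).

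The microglial values in G34V were lower than in G34R for part of these genes, in contrasts that use no WT level. The G34V animals share a run of animal numbers with no G34R or G34W animal. Runs and substitutions therefore cannot be told apart in any direct contrast with G34R or G34W, here or below, that was fitted without the block. With runs as a block, tied together by the WT animals, 1 gene was above and 2 were below their G34R level. Most of the differences from G34R listed next therefore did not pass with the block. Without the block, of all genes tested, 12 were above and 37 below their G34R level, which is 0.0564% and 0.174% (0.230% together). Among the 37 were Cd68, at 10.9, 8.24 and 9.797 CPM in G34V and 17.2, 14.8 and 16.02 CPM in G34R (log2 difference -0.73, SE 0.11, edgeR adjusted p = 0.00862), Itgax (4.91, 4.73 and 4.205 CPM in G34R, -1.49, SE 0.29, edgeR adjusted p = 0.0431) and Gpnmb (3.65, 3.89 and 3.34 CPM, -1.36, SE 0.21, edgeR adjusted p = 0.00967). Also lower were Ctss (-0.59, SE 0.103, edgeR adjusted p = 0.0211), Lyz2 (-0.82, SE 0.16, edgeR adjusted p = 0.0396), C1qc (-0.61, SE 0.11, edgeR adjusted p = 0.0351) and Apoe (-0.32, SE 0.06, edgeR adjusted p = 0.0312). Against G34W no tested gene of these 5 lists passed, and of all genes 8 (0.0376%) were above and 24 (0.113%) below their G34W level, 0.150% together. For Cst7 the difference from neither passed, at 4.89, 3.97 and 3.78 CPM in G34R (log2 difference -1.32, SE 0.301, edgeR adjusted p = 0.09001) and 0.691 and 0.332 CPM in G34W (1.78, SE 0.41, edgeR adjusted p = 0.0901). The number of genes that differed from G34R was 129 without G34V animal 3, and 13 to 25 without G34V animal 1 or 2 or any of the G34R animals. The number that differed from G34W was 10 without G34V animal 1 or 2 and 302 without G34W animal 2, the one whose title and sex field conflict.

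**Figure D2:**
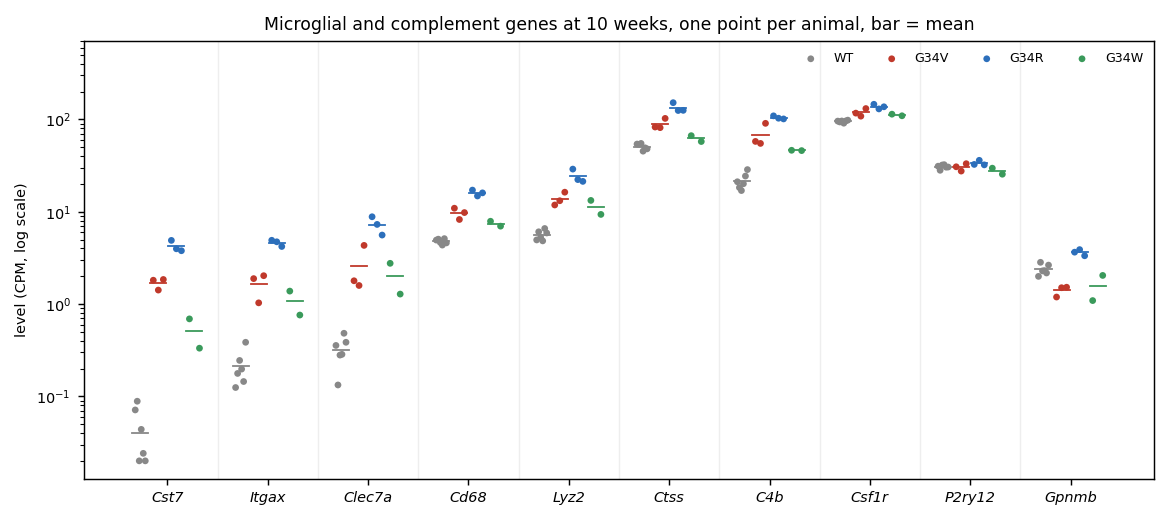
Levels of 10 microglial and complement genes in CPM (log axis), 1 point per animal with the group mean as a bar, for WT (grey, n = 6), G34V (red, n = 3), G34R (blue, n = 3) and G34W (green, n = 2); values under 0.02 CPM are drawn at 0.02. The G34V values of Cst7, Itgax, Cd68 and Lyz2 lie above all WT values and below all G34R values, P2ry12 overlaps between G34V and WT, and Gpnmb is lower in G34V than in WT.

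Interferon-stimulated genes, which cells turn on after type I interferon signalling, differed between the G34V animals. Of 28 tested, 5 rose and none fell, where 1.57% of all genes rose, and the list's median log2 fold change was 0.69. A single member rose with runs of numbers as a block, and none did within the run of the G34V animals or among libraries of higher mitochondrial share, with medians of 0.69, 0.68 and 0.63. The list summed to 160.5 CPM in G34V animal 1, 180.4 in animal 2 and 259 in animal 3, against 146 to 160.2 in WT, and animal 3 was the highest of the 3 in 27 of the 28 genes. Ifit3, an antiviral effector, shows the pattern, at 8.29, 13.7 and 24.2 CPM against 7.79 to 9.89 CPM (median 8.87): animal 1 lay within the WT range and animal 3 far above it, and the gene did not pass (log2 fold change 0.79, SE 0.25, edgeR adjusted p = 0.123). Lgals3bp, a secreted glycoprotein, was at 10.7, 11.2 and 19.2 CPM against 6.44 to 8.64 CPM (median 7.53, log2 fold change 0.87, SE 0.16, edgeR adjusted p = 0.00497), above the WT range in all 3 animals. Irf9, the DNA-binding subunit of the interferon-activated factor, rose by 0.65, the peptidase gene Usp18 by 1.27 and the antiviral gene Rsad2 by 0.98. Without animal 3, 1 member passed and the median was 0.34, and without animal 1, 14 passed and the median was 0.91. Without animal 2, or any of the WT animals 1 to 5, 2 or 3 members passed. Choroid plexus markers, too, were highest in animal 3 in all 12 genes tested. The fold changes of the choroid plexus markers were all positive, with medians of 0.51, of 1.49 with the block and of 1.48 within the run. The part of choroid plexus in these values was not tested. Leaving out 1 animal ended these calls: Irf9 without G34V animal 3 (0.1403), Usp18 without G34V animal 2 or 3 or WT animal 1, 2, 3, 4 or 5 (0.0522 to 0.303), and Rsad2 without G34V animal 2 or 3 or WT animal 1, 2, 3, 4 or 6 (0.0701 to 0.422). In the class I antigen presentation list of 15 genes, B2m, the light chain of class I molecules, rose to 50.5, 60.5 and 75.9 CPM from 41.6 to 48.1 CPM (median 45.1, log2 fold change 0.47, SE 0.100, edgeR adjusted p = 0.0124). The call of B2m ended without G34V animal 3 (0.0998), and no gene of that list rose with the block or within the run. Psmb10, a subunit of the immunoproteasome, fell instead, to 16.9, 14.6 and 17.6 CPM from 22.8 to 30.5 CPM (median 26.9, log2 fold change -0.69, SE 0.09, edgeR adjusted p = 2.50e-04). Its call held without any 1 of the 9 animals and with the block (edgeR adjusted p = 0.0147).

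Astrocytes respond to injury by raising the intermediate filament GFAP and a set of secreted proteins. Of 27 tested reactive astrocyte genes 6 rose and 1 fell, where 1.57% of all genes rose and 2.68% fell. The list median was 0.26. The block left 2 that rose and none that fell, and 1 rose within the run of the G34V animals. Of all genes 0.465% and 0.235% rose in these fits. Gfap was at 205, 210.1 and 238 CPM in G34V and 107 to 136 CPM (median 122) in WT (log2 fold change 0.84, SE 0.07, edgeR adjusted p = 2.15e-06). It was at 442, 436 and 409 CPM in G34R, and the difference between the substitutions passed (log2 difference -0.98, SE 0.09, edgeR adjusted p = 1.78e-05), while that from G34W, at 165 and 181 CPM, did not (0.33, SE 0.098, edgeR adjusted p = 0.187). Serpina3n, a serine protease inhibitor, rose to 18.6, 14.04 and 15.4 CPM from 9.06 to 12.3 CPM (median 11.4, log2 fold change 0.54, SE 0.11, edgeR adjusted p = 0.00815). It was lower than in G34R (log2 difference -0.76, SE 0.13, edgeR adjusted p = 0.0208). Osmr, the oncostatin M receptor, rose by 0.82 and the guanylate-binding protein gene Gbp2 by 0.64. Cd109, a membrane protein of the same list, fell by 1.08 on the log2 scale, to 1.14, 1.07 and 1.58 CPM from 2.19 to 3.41 CPM (median 2.67). None of 19 genes of resting astrocytes passed (list median -0.04). Without 1 animal these calls ended: Serpina3n without G34V animal 1 (0.0850), and Gbp2 without G34V animal 2 or 3 or WT animal 1, 4 or 6 (0.0551 to 0.272).

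Oligodendrocytes make myelin, the lipid-rich sheath of axons, and arise from precursors through a premyelinating stage. In G34V 12 of 32 tested genes of mature oligodendrocytes and myelin fell and none rose, where 2.68% of all genes fell. All 32 fold changes were negative, with a median of -0.499, and in 21 of the 32 every G34V animal was below every WT animal, as in 5.86% of all genes. Cnp, a marker enzyme of myelin, was at 204, 259 and 266 CPM against 312 to 407 CPM (median 342, log2 fold change -0.51, SE 0.13, edgeR adjusted p = 0.03599). Enzymes of the myelin lipids fell too: Fa2h, which makes the 2-hydroxy fatty acids of galactolipids, was at 7.84, 11.9 and 11.5 CPM against 14.1 to 19.3 CPM (median 15.99, log2 fold change -0.66, SE 0.13, edgeR adjusted p = 0.00479). Ugt8a, which attaches galactose to ceramide, was at 44.8, 58.5 and 63.002 CPM against 73.3 to 105 CPM (median 79.8, log2 fold change -0.596, SE 0.12, edgeR adjusted p = 0.00799). Opalin, a membrane protein of oligodendrocytes, was at 8.81, 12.4 and 14.3 CPM against 17.9 to 24.7 CPM (median 20.99, log2 fold change -0.85, SE 0.17, edgeR adjusted p = 0.00872). Klk6, a secreted protease, was at 1.29, 1.89 and 2.15 CPM against 2.63 to 4.72 CPM (median 3.46, log2 fold change -1.02, SE 0.202, edgeR adjusted p = 0.00592).

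In each of these genes animal 1 was the lowest of the G34V animals, and in 31 of the 32 members it was so. Other calls were Adamts4 (-0.77), Cldn11 (-0.602), Tspan2 (-0.52), Nkx6-2 (-0.51), Gpr37 (-0.44) and Efnb3 (-0.37). Mbp, myelin basic protein, stood at 985, 1275 and 1217 CPM against 1488 to 2047 CPM (median 1645), clear of the WT range, and did not pass (log2 fold change -0.56, SE 0.15, edgeR adjusted p = 0.0565). Mag (-0.49, edgeR adjusted p = 0.0592) and Mog (-0.62, edgeR adjusted p = 0.103) did not pass either. The list summed to 3411, 4464 and 4468 CPM in the G34V animals 1, 2 and 3 and to 5325 to 6967 CPM in WT. Without animal 1, 5 members passed with a median of -0.36. With runs of numbers as a block only Klk6 passed (edgeR adjusted p = 0.0361), and within the run of the G34V animals no member did, while all 32 fold changes were again negative in each (medians -0.43 and -0.43). Striatal and thalamic markers, too, leaned to lower values in G34V, with negative fold changes in 13 of 14 and 12 of 14. Their medians were -0.23 and -0.34, and -0.45 and -0.49 with the block, while 3 striatal markers fell within the run. Animal 1, which had the lowest myelin sum, was the highest of the G34V animals in 11 of the 14 striatal markers. In 10 of the 14 thalamic markers it was the lowest. The part of neighbouring tissue in the myelin values was not tested. The calls that ended without 1 animal were these: Cnp without G34V animal 1, 2 or 3 or WT animal 1, 2, 4 or 5 (0.0632 to 0.197), Klk6 without G34V animal 1 (0.0505), Cldn11 without G34V animal 1 or 3 (0.1099 and 0.0526), Tspan2 without G34V animal 1 (0.0625), Nkx6-2 without G34V animal 1, 2 or 3 or WT animal 1, 3 or 5 (0.0519 to 0.118), Gpr37 without G34V animal 1 or 2 or WT animal 2, 4 or 5 (0.0616 to 0.199), and Efnb3 without G34V animal 1 (0.0603). No member passed against G34R or G34W. All 32 were lower than in G34R, with a median log2 difference of -0.29, and the median difference from G34W was -0.03.

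**Figure D3:**
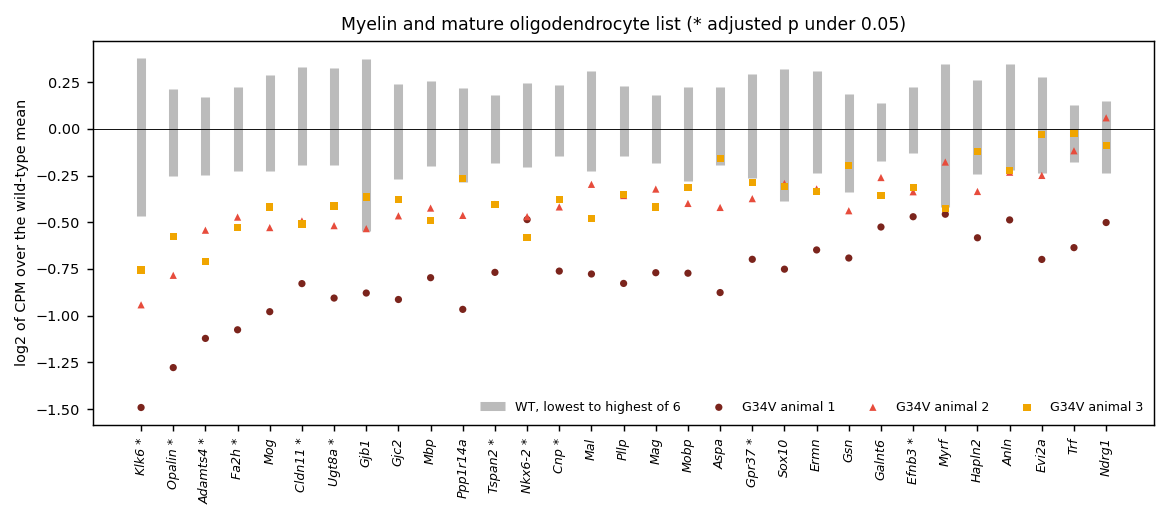
Each of the myelin and mature oligodendrocyte genes shown is drawn as the log2 of its CPM over the WT mean, with the WT range as a grey bar (n = 6), the 3 G34V animals as separate symbols, and an asterisk at an edgeR adjusted p under 0.05. Nearly all G34V symbols lie below 0 and animal 1 is lowest in all genes shown but Nkx6-2.

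Earlier stages of the lineage were examined by their own lists. Of 15 tested premyelinating genes only Enpp6, a choline phosphodiesterase of newly formed oligodendrocytes, fell, at 4.49, 4.94 and 5.84 CPM against 6.75 to 11.02 CPM (median 8.07, log2 fold change -0.68, SE 0.15, edgeR adjusted p = 0.0118). Of 16 tested precursor genes 2 fell. Over all genes 2.68% fell, and 1.14% with the block, where 0 premyelinating genes and 1 precursor gene did. Olig1, a transcription factor of the whole lineage, was at 35.5, 37.4 and 40.8 CPM against 46.1 to 57.8 CPM (median 48.6, log2 fold change -0.39, SE 0.07, edgeR adjusted p = 0.00371). Sox8 was at 31.4, 31.5 and 29.2 CPM against 33.7 to 41.996 CPM (median 39.5, log2 fold change -0.33, SE 0.08, edgeR adjusted p = 0.0239). Olig2 did not pass (-0.33, edgeR adjusted p = 0.0855). Pdgfra (-0.096, edgeR adjusted p = 0.525) and Cspg4 (0.03, edgeR adjusted p = 0.921), the defining receptors of precursors, did not pass. The medians of the premyelinating and precursor lists were -0.16 and -0.18, and the difference from the mature list was not tested. Sox8 passed with the block (edgeR adjusted p = 0.0206) and Olig1 did not (0.0632). Without 1 animal these calls ended: Enpp6 without G34V animal 1 or 2 (0.0861 and 0.0687), and Sox8 without G34V animal 1, 2 or 3 (0.07303 to 0.104).

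Myelin is built from cholesterol made within the brain. Of 21 tested genes of cholesterol synthesis and its control, 3 fell and none rose, and 20 of the 21 fold changes were negative (median -0.18). The block left 1 that fell. Of all genes 2.68% fell, and 1.14% with the block. Insig1, the sterol sensor that holds SREBP in the endoplasmic reticulum and is itself a target of it, was at 59.6, 68.2 and 63.3 CPM against 74.9 to 91.5 CPM (median 76.2, log2 fold change -0.33, SE 0.07, edgeR adjusted p = 0.0102). Hmgcs1, which makes HMG-CoA, was at 272, 242 and 246 CPM against 283 to 353 CPM (median 310.04, log2 fold change -0.31, SE 0.08, edgeR adjusted p = 0.02497). Sc5d, a late enzyme of the pathway, was at 35.7, 37.3 and 41.8 CPM against 42.3 to 47.7 CPM (median 44.4, log2 fold change -0.22, SE 0.06, edgeR adjusted p = 0.0301). Scd2, the main fatty acid desaturase of brain, fell as well, to 946, 1004 and 918 CPM from 1066 to 1243 CPM (median 1129, log2 fold change -0.25, SE 0.06, edgeR adjusted p = 0.0148). Without G34V animal 1 or 2 a single member of the list passed. Leaving out single animals ended these calls: Insig1 without G34V animal 1 (0.0992), Hmgcs1 without G34V animal 2 or 3 (0.145 and 0.0961), Sc5d without G34V animal 1 or 2 or WT animal 1, 3 or 5 (0.0546 to 0.223), and Scd2 without G34V animal 1 or 3 (0.0656 and 0.0645).

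The unfolded protein response answers misfolded protein in the endoplasmic reticulum (ER) through the sensors ATF6, IRE1 and PERK, and raises ER chaperones. Of 28 tested genes of that response 6 rose (1.57% of all genes did) and none fell, with a list median of 0.07. Hspa5, the ER chaperone BiP (chromosome 2, 34771970 to 34777547, plus strand, GRCm38), was at 322, 296 and 245 CPM in G34V and 205 to 221 CPM (median 212) in WT (log2 fold change 0.44, SE 0.07, edgeR adjusted p = 8.18e-04). Xbp1, the transcription factor activated by IRE1, was at 84.7, 82.7 and 72.3 CPM against 56.8 to 67.98 CPM (median 61.9, log2 fold change 0.37, SE 0.07, edgeR adjusted p = 0.00291). Pdia4, a disulfide isomerase of the ER, was at 62.4, 60.6 and 56.7 CPM against 46.4 to 51.3 CPM (median 49.5, log2 fold change 0.28, SE 0.05, edgeR adjusted p = 0.00455). Its relative Pdia6 was at 98.8, 86.4 and 84.4 CPM against 72.8 to 76.4 CPM (median 75.2, log2 fold change 0.26, SE 0.06, edgeR adjusted p = 0.0121). The ER proteins Sdf2l1 and Creld2 rose by 0.53 and 0.33 on the log2 scale. Hspa5, Xbp1, Pdia4 and Pdia6 stood above the WT range in all 3 animals. Animal 3 had the lowest G34V value in 20 of the 28 genes, and animal 1 the highest in 16.

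Hspa5 was also higher than in G34R, at 205, 200.2 and 224 CPM there (log2 difference 0.45, SE 0.08, edgeR adjusted p = 0.0211), and the difference from G34W, at 254 and 236 CPM, did not pass (0.23, SE 0.09, edgeR adjusted p = 0.3298). In the fit with the block only 1 gene of all tested was higher than in G34R, by at least 2-fold. Against WT, Hspa5 and Xbp1 passed with runs of numbers as a block (edgeR adjusted p = 0.0407 and 0.0343) and the other members did not. Within the run of the G34V animals none did. Without G34V animal 1, 3 members passed. Herpud1, of ER-associated degradation (0.22, edgeR adjusted p = 0.0712), Manf, a secreted ER factor (0.24, edgeR adjusted p = 0.117), and Atf6 itself (0.22, edgeR adjusted p = 0.138) did not pass. The abundant chaperones Hsp90b1 (-0.05, edgeR adjusted p = 0.727) and Calr (0.100, edgeR adjusted p = 0.491) did not pass. The calls that ended without 1 animal were these: Pdia6 without G34V animal 1 (0.128), Sdf2l1 without G34V animal 1 or 2 or WT animal 3, 4 or 6 (0.0519 to 0.249), and Creld2 without G34V animal 1 or 2 or WT animal 2, 3, 4, 5 or 6 (0.0708 to 0.316).

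The ER stress response element, through which ATF6 and XBP1 act, is spelled CCAAT, then any 9 bases, then CCACG. It was searched on both strands in the RefSeq promoters (GRCm38.p6) over the 300 bases around each start, in this spelling alone. It was found in 0.137% of the 27025 genes with a promoter in that table and in 9 of the 24 response genes in it, 3 of the 6 that rose and 6 of the 18 that did not pass. The element therefore occurs in members that rose and in members that did not, and the match is a description of the letters only. The stretches around it are shown because they are the shared sequence of this response, with the fixed letters of the element in capitals, in the direction of the gene, which is the plus strand for Hspa5, Creld2 and Pdia6 and the minus strand for Calr and Hsp90b1. In Creld2, Calr and the second stretch of Hsp90b1 the element lies on the other strand, where its letters read CGTGG and ATTGG in this direction. The first 3 belong to genes that rose and the last 3, of Calr and the pair in Hsp90b1, to genes that did not pass.
Hspa5 chr2:34771995-34772073: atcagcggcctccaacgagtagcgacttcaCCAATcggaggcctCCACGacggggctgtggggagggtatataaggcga
Creld2 chr15:88819490-88819568: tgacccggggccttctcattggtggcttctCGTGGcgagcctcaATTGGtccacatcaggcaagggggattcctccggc
Pdia6 chr12:17266461-17266539: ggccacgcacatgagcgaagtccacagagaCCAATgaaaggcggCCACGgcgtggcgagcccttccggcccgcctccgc
Calr chr8:84847045-84847123: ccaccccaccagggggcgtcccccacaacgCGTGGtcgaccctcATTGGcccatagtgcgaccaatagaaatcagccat
Hsp90b1 chr10:86705608-86705686: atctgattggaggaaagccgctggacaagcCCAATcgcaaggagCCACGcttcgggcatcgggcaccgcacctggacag
Hsp90b1 chr10:86705503-86705581: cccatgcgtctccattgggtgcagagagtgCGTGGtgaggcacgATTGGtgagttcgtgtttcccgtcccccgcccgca

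**Figure D4:**
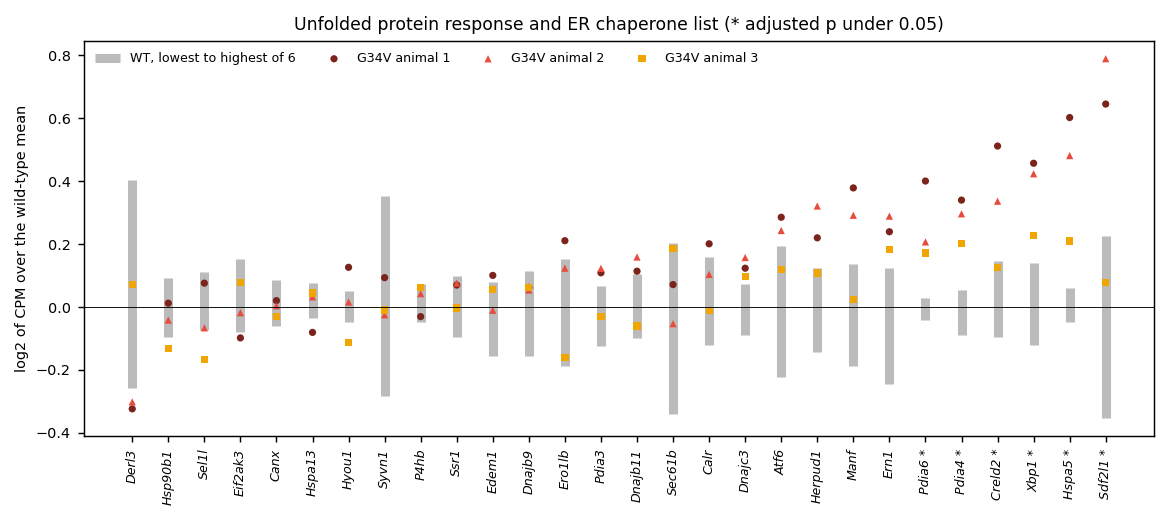
Each of the 28 genes of the unfolded protein response list is drawn as the log2 of its CPM over the WT mean, with the WT range as a grey bar (n = 6), the G34V animals as 3 symbols and an asterisk at an edgeR adjusted p under 0.05. The 6 genes that passed are at the right, with Hspa5, Xbp1, Pdia4 and Pdia6 above the WT bar in all 3 animals and animal 3 lowest in most.

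Other stress programmes were examined by their own lists. Of 22 tested targets of the integrated stress response, 1 rose and 2 fell, where 1.57% of all genes rose and 2.68% fell. Ddit3, the transcription factor CHOP, was at 20.01, 19.7 and 18.4 CPM against 14.9 to 16.8 CPM (median 16.4, log2 fold change 0.25, SE 0.06, edgeR adjusted p = 0.0248), while Atf4, the transcription factor of that response, fell to 80.1, 74.1 and 73.5 CPM from 78.9 to 108 CPM (median 90.8, log2 fold change -0.27, SE 0.07, edgeR adjusted p = 0.0481). Asns, asparagine synthetase, fell to 87.7, 88.2 and 88.3 CPM from 92.6 to 111 CPM (median 102, log2 fold change -0.21, SE 0.06, edgeR adjusted p = 0.0491). None of these 3 passed with runs of numbers as a block. Their calls ended without 1 animal, as follows: Ddit3 without G34V animal 1 or 2 or WT animal 1 (0.0509 to 0.143), Atf4 without G34V animal 1, 2 or 3 or WT animal 1, 2, 3, 4 or 5 (0.0536 to 0.191), and Asns without G34V animal 1, 2 or 3 or WT animal 1, 3, 4, 5 or 6 (0.0560 to 0.204). No gene passed of 21 tested heat shock genes (median -0.03), 16 p53 targets (0.09) and 14 glucocorticoid targets (0.07). Of 20 NRF2 and oxidative stress genes only the catalase gene Cat passed, at 32.6, 33.6 and 34.3 CPM against 37.9 to 41.96 CPM (median 39.3, log2 fold change -0.24, SE 0.05, edgeR adjusted p = 0.0129). Its call ended on leaving out G34V animal 1 or 2 (0.0969 and 0.0588). Cat also did not pass with the block (edgeR adjusted p = 0.100) or within the run of the G34V animals (edgeR adjusted p = 0.187). Nuclear genes of oxidative phosphorylation did not pass, although 25 of 26 fold changes were negative with a median of -0.07. In the fit with the block 16 were negative and 10 positive (median -0.03), and within the run 17 and 9.

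Genes that fell outnumbered those that rose, and the falls with the smallest adjusted p lay outside the glial lists. Hrasls, a phospholipid-modifying acyltransferase, was at 4.095, 3.13 and 3.43 CPM against 16.8 to 20.8 CPM (median 17.6, log2 fold change -2.36, SE 0.17, edgeR adjusted p = 2.94e-07). Zdhhc1, a palmitoyltransferase, was at 5.41, 7.19 and 6.47 CPM against 15.5 to 18.9 CPM (median 17.9, log2 fold change -1.47, SE 0.097, edgeR adjusted p = 1.13e-07). In both the G34V animals lay at less than the lowest WT value by a wide margin and close to each other. Hrasls was also lower than in G34W (log2 difference -1.09, SE 0.198, edgeR adjusted p = 0.0383), and so was Zdhhc1 (-0.73, SE 0.12, edgeR adjusted p = 0.01697). Neither differed from G34R at the threshold (0.631 and 0.394 as edgeR adjusted p).

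Other large falls were in genes of varied roles. Sowahb, which encodes an ankyrin repeat protein, was at 4.54, 6.16 and 3.59 CPM against 15.3 to 25.8 CPM (median 20.4, log2 fold change -2.09, SE 0.19, edgeR adjusted p = 1.55e-05). Acsl5, which activates long-chain fatty acids, was at 37.9, 40.4 and 39.01 CPM against 68.99 to 86.1 CPM (median 76.6, log2 fold change -0.96, SE 0.08, edgeR adjusted p = 1.39e-06). Il17ra, the receptor of interleukin-17, was at 7.32, 7.71 and 7.85 CPM against 14.3 to 19.6 CPM (median 15.9, log2 fold change -1.104, SE 0.09, edgeR adjusted p = 1.93e-06). It was also lower than in G34R (log2 difference -0.598, SE 0.11, edgeR adjusted p = 0.0211). Egfl6, an extracellular EGF-domain protein, and the uncharacterised A730017C20Rik had log2 fold changes of -2.74 and -1.72. Of genes at low level in WT, Rec8, the meiotic cohesin subunit, was at 0.0993, 0.429 and 0.365 CPM against 1.39 to 2.55 CPM (median 2.25, log2 fold change -2.79, SE 0.33, edgeR adjusted p = 4.59e-05). Rnf17, a Tudor-domain protein of male germ cells, was at 0.199, 0.0429 and 0.122 CPM against 0.711 to 1.51 CPM (median 0.925, log2 fold change -3.103, SE 0.53, edgeR adjusted p = 0.00201). Henmt1, which methylates piRNA ends, fell from 0.899 to 1.12 CPM (median 1.04) to 0.298, 0.172 and 0.0811 CPM (log2 fold change -2.51, SE 0.43, edgeR adjusted p = 0.00194). All of these calls held without any 1 of the 9 animals, and all passed with runs of numbers as a block.

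The following were among the genes of highest WT level that fell. Ckb, brain creatine kinase, was at 738, 814 and 776 CPM against 852 to 1016 CPM (median 941, log2 fold change -0.27, SE 0.07, edgeR adjusted p = 0.02599). Rapgef4, the cAMP-regulated exchange factor EPAC2, was at 565, 602 and 572 CPM against 704 to 789.6 CPM (median 724, log2 fold change -0.34, SE 0.06, edgeR adjusted p = 0.00245). Ncald, the calcium sensor neurocalcin delta, was at 546, 517 and 549 CPM against 629.6 to 810.5 CPM (median 660.3, log2 fold change -0.35, SE 0.07, edgeR adjusted p = 0.00809). Rasgrf1, an exchange factor downstream of NMDA receptors, fell by 0.38 and Nudt3 by 0.34 on the log2 scale. Dkk3 and Lynx1, a modulator of nicotinic receptors, fell by 0.58 and 0.42, and Qk, the RNA-binding protein quaking that acts in myelination, by 0.21. Leaving out single animals ended these: Ckb without G34V animal 1, 2 or 3 or WT animal 1 or 3 (0.0522 to 0.1704), Ncald without G34V animal 2 (0.0646), Dkk3 without G34V animal 1 or 3 (0.0702 and 0.0783), Lynx1 without G34V animal 1 or 3 (0.0667 and 0.0706), and Qk without G34V animal 1, 2 or 3 or WT animal 1, 2, 5 or 6 (0.0567 to 0.281).

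The PNMA, TCEAL and BEX families encode mostly small proteins expressed in neurons. Of 20 tested PNMA, TCEAL and BEX family genes 9 fell and none rose, where 2.68% of all genes fell. The list was chosen with earlier results of these data known, so its share beside that of all genes is no independent test. All 9 had every G34V animal below every WT animal, as had 5.86% of all genes. Most called genes have ranges apart (860 of 905), so this adds little to the calls. Of the 9, 4 passed with runs of numbers as a block (1.14% of all genes fell there). Tceal1, a modulator of transcription elongation, was at 7.47, 7.79 and 8.42 CPM against 18.6 to 24.4 CPM (median 22.3, log2 fold change -1.46, SE 0.11, edgeR adjusted p = 5.45e-07). Pnma3, a paraneoplastic antigen of retrotransposon origin, was at 5.34, 3.39 and 4.95 CPM against 11.9 to 13.2 CPM (median 12.6, log2 fold change -1.47, SE 0.13, edgeR adjusted p = 2.18e-06). Bex1, a brain-expressed signalling adaptor, was at 22.2, 22.5 and 22.2 CPM against 30.1 to 36.4 CPM (median 34.9, log2 fold change -0.62, SE 0.09, edgeR adjusted p = 2.75e-04). The others were Tceal7 (-0.87), Bex4 (-0.57), Tceal8 (-0.38), Tceal3 (-0.22), Bex2 (-0.22) and Tceal6 (-0.198). All 9 lie on the X chromosome, and TCEAL and BEX genes share sequence within their families, so counts can be split between copies. Ndn, the imprinted gene necdin, which is expressed from the paternal copy, also fell, to 64.6, 64.9 and 67.97 CPM from 83.9 to 116 CPM (median 108, log2 fold change -0.67, SE 0.105, edgeR adjusted p = 0.00133), with 59.3, 48.98 and 59.2 CPM in G34R. It missed the threshold with the block (edgeR adjusted p = 0.0513). Of 30 imprinted genes the only other call was Inpp5f (-0.26). Calls ended for Tceal3 without G34V animal 1, 2 or 3 (0.05399 to 0.0889), Bex2 without G34V animal 1 or 2 (0.0717 and 0.104), Tceal6 without G34V animal 1, 2 or 3 or WT animal 1, 2, 3, 5 or 6 (0.0591 to 0.202), and Inpp5f without G34V animal 1 or 3 (0.0809 and 0.0590).

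Genes that mark types of neuron were called in both directions. Of 19 upper-layer genes 2 rose and 2 fell, of 22 deep-layer genes 1 fell, and of 23 interneuron genes 1 rose, where 4.25% of all genes were called. In the fit with the block 1 upper-layer gene and 2 deep-layer genes fell, and none of the 3 lists held a rise. Lamp5, a membrane protein of upper-layer neurons and some interneurons, was at 64.4, 71.6 and 62.8 CPM against 90.95 to 120.2 CPM (median 108, log2 fold change -0.68, SE 0.08, edgeR adjusted p = 3.80e-05). Rprm, a cell cycle inhibitor expressed in deep layers, was at 21.7, 23.5 and 25.1 CPM against 32.5 to 37.4 CPM (median 36.5, log2 fold change -0.62, SE 0.08, edgeR adjusted p = 1.44e-04), which was also lower than in G34W (log2 difference -0.53, SE 0.101, edgeR adjusted p = 0.0448). Both held with the block (edgeR adjusted p = 0.00123 and 0.00224) and without any 1 animal. Pou3f2 and Rorb, transcription factors of upper layers, rose by 0.44 and 0.34, and Rspo1 fell by 0.79 on the log2 scale. None of 21 ion channel genes or 15 neurofilament and axon genes passed, and 1 of 24 synaptic genes did: Slc17a6, the vesicular glutamate transporter VGLUT2, at 20.998, 26.7 and 23.2 CPM against 27.4 to 38.4 CPM (median 34.4, log2 fold change -0.51, SE 0.11, edgeR adjusted p = 0.0165). With the block no synaptic or ion channel gene passed, and 1 neurofilament and axon gene fell. Slc17a6 is also 1 of the 14 thalamic markers tested, which had a median of -0.34, and Rgs16, another of them, fell to 3.08, 3.65 and 2.76 CPM from 4.57 to 9.98 CPM (median 6.36, log2 fold change -1.12, SE 0.202, edgeR adjusted p = 0.00313). The thalamic markers summed to 192 to 231 CPM in G34V and 199.6 to 295 CPM in WT, and the part of dissection in these changes was not tested. Immediate early genes, which follow neuronal activity within minutes, spread widely in WT. Of 21 tested, Ier2 fell to 3.77, 3.89 and 3.16 CPM from 6.84 to 17.01 CPM (median 8.19, log2 fold change -1.41, SE 0.298, edgeR adjusted p = 0.0166), with WT animal 4 far above the other WT animals. Npas4 was at 9.48, 6.89 and 5.17 CPM against 13.1 to 53.3 CPM (median 16.8) and did not pass (log2 fold change -1.63, SE 0.59, edgeR adjusted p = 0.192). Without 1 animal these calls ended: Pou3f2 without G34V animal 2 (0.125), Rorb without G34V animal 1 or 2 (0.135 and 0.137), Rspo1 without G34V animal 1 or 3 (0.0546 and 0.0753), Slc17a6 without G34V animal 1 or 3 (0.112 and 0.0737), and Ier2 without G34V animal 1, 2 or 3 (0.0675 to 0.0967).

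Regulators of development and of DNA methylation were examined since the substituted residue lies next to the lysine that DNMT3A reads when methylated. Of 30 homeobox and other developmental regulators 2 rose and 1 fell, and the same 3 passed with the block and within the run of the G34V animals. Over all genes 4.25% were called, 1.60% with the block and 1.04% within the run. Sox3, a transcription factor of neural progenitors, was at 2.08, 1.89 and 1.89 CPM against 0.461 to 0.6198 CPM (median 0.594, log2 fold change 1.79, SE 0.19, edgeR adjusted p = 1.36e-05). Dmrt3, a doublesex-related factor, was at 1.34, 0.644 and 1.28 CPM against 0.1101 to 0.329 CPM (median 0.161, log2 fold change 2.47, SE 0.33, edgeR adjusted p = 1.66e-04). Casz1, a zinc finger factor of cell fate, was at 1.61, 1.42 and 1.93 CPM against 4.16 to 7.04 CPM (median 6.44, log2 fold change -1.89, SE 0.18, edgeR adjusted p = 7.28e-06). These calls held without any 1 of the 9 animals. Of 28 genes of DNA methylation and lysine 36 methylation, 1 rose and 1 fell, where 4.25% of all genes were called. Kdm2b, a demethylase that binds unmethylated CpG islands, rose to 21.7, 20.1 and 20.04 CPM from 15.7 to 18.1 CPM (median 16.8, log2 fold change 0.29, SE 0.07, edgeR adjusted p = 0.01596). Tet1, which oxidises methylated cytosine, fell to 15.02, 15.4 and 13.02 CPM from 16.6 to 19.2 CPM (median 17.3, log2 fold change -0.27, SE 0.07, edgeR adjusted p = 0.0429). Neither passed with the block, and single animals ended these calls: Kdm2b without G34V animal 1 (0.1101), and Tet1 without any 1 of the 9 animals (0.0519 to 0.212). Dnmt3b did not pass (0.82, edgeR adjusted p = 0.207). Col6a1, a collagen chain of the pericyte and fibroblast list, was the 1 gene of 19 in that list that passed, at 19.9, 20.8 and 18.99 CPM against 7.93 to 12.5 CPM (median 11.5, log2 fold change 0.89, SE 0.11, edgeR adjusted p = 1.24e-04).

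A small set of genes set G34V apart from both other substitutions as well as from WT. There were 8, each called in all 3 comparisons, and 5 of them lie on chromosome 11. Gpr179, an orphan receptor that organises signalling in retinal bipolar cells (chromosome 11, 97332109 to 97352077, minus strand, GRCm38), was at 8.17, 7.43 and 7.34 CPM in G34V, 0.3205 to 0.797 CPM (median 0.442) in WT, 0.771, 0.378 and 0.517 CPM in G34R and 0.327 and 0.427 CPM in G34W (log2 fold change 3.96, SE 0.23, edgeR adjusted p = 1.34e-08 against WT). The non-coding AA465934 (chromosome 11, 83291699 to 83294632, plus strand) was at 7.12, 6.81 and 5.94 CPM in G34V, 0.4403 to 0.677 CPM (median 0.534) in WT, 0.437, 1.24 and 0.987 CPM in G34R and 1.1995 and 0.499 CPM in G34W (log2 fold change 3.58, SE 0.25, edgeR adjusted p = 2.10e-07 against WT). In both, the G34V animals were alike and no animal of the other groups came near them.

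Rpl26, a protein of the large ribosomal subunit (chromosome 11, 68901583 to 68906989, plus strand, GRCm38), was at 40.9, 40.1 and 40.7 CPM in G34V, and at 71.3 to 81.2 CPM (median 76.4) in WT, 82.3, 73.3 and 74.8 CPM in G34R and 77.2 and 64.2 CPM in G34W (log2 fold change -0.91, SE 0.06, edgeR adjusted p = 2.10e-07 against WT). It was the only gene of 24 ribosomal protein genes tested that passed. Rec8 was lower than in G34R (log2 difference -2.66, SE 0.35, edgeR adjusted p = 0.00227) and G34W (-2.17, SE 0.39, edgeR adjusted p = 0.0357). Krt12, a keratin, fell to 11.8, 9.88 and 11.5 CPM from 14.4 to 18.5 CPM (median 16.8, log2 fold change -0.58, SE 0.103, edgeR adjusted p = 0.00273). It was above the WT range in all G34R animals, at 23.2, 24.7 and 19.6 CPM. A830036E02Rik, an antisense transcript, was at 14.4, 12.9 and 12.98 CPM against 17.95 to 21.9 CPM (median 19.9, log2 fold change -0.58, SE 0.08, edgeR adjusted p = 1.57e-04). It overlaps another gene, and since the strand setting of the counting is not given, its reads and those of its partner cannot be told apart. Snrnp70, a core protein of the U1 splicing particle, rose to 49.4, 48.1 and 46.998 CPM from 39.6 to 41.1 CPM (median 40.03, log2 fold change 0.26, SE 0.05, edgeR adjusted p = 0.00583). Its call ended without G34V animal 1 (0.0529).

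Chromosome 11 held 8.22% of the tested genes, 12 of the 49 that differed between G34V and G34R and 9 of the 32 that differed between G34V and G34W. Against WT it held 52 genes that rose and 49 that fell of 1749, or 5.77% against 4.25% of all genes. Utp18, on the same chromosome and a factor of ribosome assembly, was higher than in G34R (log2 difference 0.54, SE 0.07, edgeR adjusted p = 0.00292), at 25.4, 26.7 and 27.5 CPM in G34V and 17.9 to 19.5 CPM (median 18.7) in WT. The 3 G34V animals share a run of animal numbers with no G34R or G34W animal, so that in the direct tests a difference between runs cannot be told apart from that between substitutions. With runs as a block, tied together by the WT animals, 3 genes differed between G34V and G34R and 4 between G34V and G34W. Against the 2 WT animals of the run, Gpr179, AA465934, Rpl26 and Rec8 had edgeR adjusted p of 1.05e-04, 7.80e-05, 4.39e-04 and 0.0115, and with the block Gpr179 had a log2 fold change of 3.61.

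**Figure D5:**
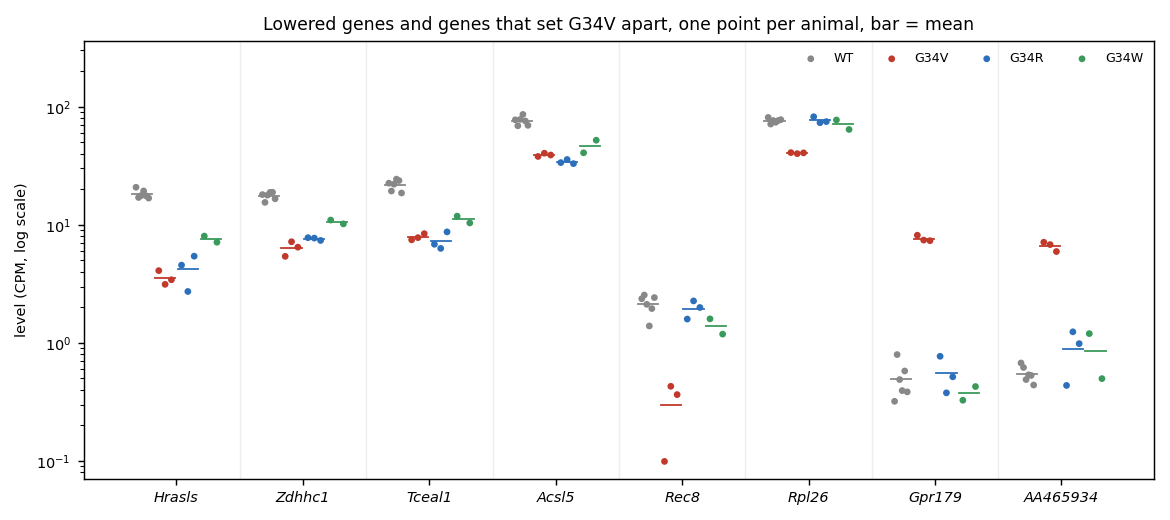
Levels in CPM (log axis) of 4 of the strongest falls (Hrasls, Zdhhc1, Tceal1, Acsl5) and of 4 genes that differed from both other substitutions (Rec8, Rpl26, Gpr179, AA465934), with 1 point per animal and the group mean as a bar, for WT (grey, n = 6), G34V (red, n = 3), G34R (blue, n = 3) and G34W (green, n = 2). In the first 4 genes every animal with a substitution lies below every WT animal, and in the last 4 the G34V points lie apart from all other points.

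Further rises lay outside the lists. Lag3, an immune checkpoint receptor, was at 6.23, 4.77 and 8.32 CPM against 1.98 to 2.59 CPM (median 2.38, log2 fold change 1.46, SE 0.15, edgeR adjusted p = 1.48e-05). Lsp1, an actin-binding protein of leukocytes, was at 7.45, 6.61 and 7.75 CPM against 2.42 to 3.56 CPM (median 3.15, log2 fold change 1.24, SE 0.14, edgeR adjusted p = 3.06e-05). Myo1f, a myosin of immune cells, was at 5.76, 6.61 and 7.26 CPM against 2.48 to 3.81 CPM (median 2.84, log2 fold change 1.16, SE 0.13, edgeR adjusted p = 4.38e-05). Tcap, known as a sarcomere protein, was at 7.396, 7.2996 and 7.12 CPM against 2.48 to 3.63 CPM (median 3.08, log2 fold change 1.27, SE 0.11, edgeR adjusted p = 2.48e-06). Nrsn1, a membrane protein of neurons, was the most abundant of the rises with the smallest adjusted p, at 217, 213 and 204 CPM against 153 to 165 CPM (median 159, log2 fold change 0.42, SE 0.05, edgeR adjusted p = 2.07e-05). It was the only one of these 5 to differ from G34R (log2 difference 0.29, SE 0.05, edgeR adjusted p = 0.0237). These 5 calls held without any 1 of the 9 animals and with the block.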

How the data were processed

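Total RNA of cortex was sequenced after ribosomal RNA depletion, and the authors deposited raw counts per gene for all libraries. Per the submitters' processing notes, Trimmomatic 0.32, STAR 2.3.0e, featureCounts 1.4.4 and bedtools 2.27.1 were used, with mm10. The annotation release was not given in the sources used here, nor the strand setting of the counting. From the deposited counts, the 2 libraries of 1 WT animal were summed, 175 genes (those on the Y chromosome, Xist and Tsix) were removed, and 21274 of 39017 genes passed edgeR's filter on low counts. Models were fitted in R 4.3.3 with edgeR 4.0.16 (TMM scaling, quasi-likelihood F-test, Benjamini-Hochberg adjustment over all genes tested) on the 14 animals of 10 weeks, leaving 10 residual degrees of freedom. The code was tested on simulated counts. CPM are counts divided by the TMM-scaled library total in M. Each SE is the absolute log2 fold change divided by the square root of its F statistic. It therefore restates the test and is no separate measure of the spread between animals. DESeq2 1.42.0, RLE scaling, no filter on low counts, fits without mitochondrial and rRNA genes, 1 library alone of the WT animal with 2, only the groups compared, runs of animal numbers as a block, libraries of higher mitochondrial share and each animal left out were alternatives. Labels do not say that animals are separate litters, so p-values measure only the spread between these samples.

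Members and gene lists were chosen with earlier results of these data known. A list's count beside the share of all genes is therefore a description and no independent test. Genes were named by rule: H3f3a, all tested members of the myelin, premyelinating, precursor, unfolded protein response and both microglial state lists, up to 4 of each other list with the smallest adjusted p, the 20 largest changes per direction at 1 CPM or more with ranges apart, the 15 smallest p per direction, and the 15 genes of highest WT level that fell. The text names part of these, and some results are not reported here. Chosen after their values were seen were A830036E02Rik, Krt12, Snrnp70, Utp18, the 4 genes near H3f3a, Bex2, Bex4, Tceal3, Tceal6, Tceal7, C1qa, C1qb, C3ar1, Gbp2, Serpina3n, Ifit3, Il1a and the Fc receptor genes.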

Additional observations from a re-analysis of the deposited data

Results flagged for a closer look

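In 14 of the 164 genes given with values in the text, 1 WT animal stood apart from the other 5 by Dixon's test, which by chance happens in about 1 in 20 groups. WT animal 1 was high for the oligodendrocyte genes Cldn11 (166 CPM, others 116 to 133), Enpp6 (11.0211 CPM, others 6.75 to 8.31) and Olig1 (57.8 CPM, others 46.1 to 50.1), and for Lgals3 (1.14 CPM, others 0.42 to 0.675) and Tmem63a (30.4 CPM, others 23.6 to 25.7). WT animal 2 was high for Lpl (28.8 CPM, others 13.9 to 19.3) and Tet1 (19.2 CPM, others 16.6 to 17.5). WT animal 4 was high for the immediate early genes Ier2 (17.0068 CPM, others 6.84 to 9.22) and Npas4 (53.3 CPM, others 13.1 to 17.6). Myo1f was at 3.81 CPM in WT animal 3 (others 2.48 to 2.9), Ccl3 at 0.217 CPM in WT animal 5 (others 0.0219 to 0.0933) and Tlr2 at 1.43 CPM in WT animal 6 (others 0.819 to 1.04). The low values were Ddit3 at 14.9 CPM in WT animal 6 (others 16.2 to 16.8) and Rprm at 32.5 CPM in WT animal 5 (others 35.6 to 37.4). Without WT animal 1 the fall of Cldn11, Enpp6 and Olig1 still passed, and so did that of Ier2 without WT animal 4 (edgeR's adjusted p under 0.05). The call of Tet1 ended without WT animal 2, as it did without each of the other animals.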

How the results depend on the processing

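With runs of animal numbers as a block, 341 genes differed between G34V and WT, 3 between G34V and G34R and 4 between G34V and G34W, while 1 myelin gene fell, 2 unfolded protein response genes rose and 7 disease-associated microglia genes rose. Within the run of the G34V animals alone the counts were 212 genes against WT, 0 myelin genes, 0 response genes and 6 microglial genes. With only libraries of higher mitochondrial share 519 genes differed from WT. DESeq2 called 265 genes against G34R, 302 against G34W and 23 falling myelin genes, and a fit of only the groups compared called 169 against G34R. Leaving out 1 animal at a time gave 497 to 856 genes against WT, 13 to 129 against G34R, 10 to 302 against G34W, 5 to 14 falling myelin genes and 3 to 7 rising response genes. The cause of these shifts was not tested, though fewer animals enter the fits of 1 run and those with an animal left out.

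Of the 140 genes given with values that passed against WT, 72 did not pass with the block, 86 of 139 within the run, and 13 to 47 with 1 animal left out. DESeq2 and the fit without mitochondrial and rRNA genes lost none of the 140, and RLE scaling lost 1. No gene that passed changed direction under any alternative run. The genes whose direction changed had not passed. The log2 fold change of Apoe was 0.00842 in libraries of higher mitochondrial share, 0.0164 within the run, 0.0221 with the block, and -0.0265 to 0.0214 with 1 animal left out. That of P2ry12 was 0.00944, 0.0111, 0.0167, and -0.0861 to 0.0531 in the same order. That of Igf1 was -0.0971, -0.00909, -0.00346, and -0.0348 to 0.108 in that order, and -0.00113 with only the second library of the WT animal that has 2. Cspg4 was at -0.0683 in libraries of higher mitochondrial share, -0.0103 with that second library alone, and -0.0153 to 0.059003 with 1 animal left out. With 1 animal left out Lpl ranged from -0.457 to 0.021, Siglech from -0.0542 to 0.145 and Spp1 from -0.279 to 0.0415.

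No paired analysis by replicate number was made, because those numbers follow accession order and pair no animals. Genes near 0 in WT, such as Cst7, rest on few counts there, and their fold changes depend on the prior count of the fit.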

Other observations

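Some calls were in genes not described so far. Over all genes 4.25% were called (1.57% rose and 2.68% fell), and a single call in a list of 19 or 20 genes is near that share. Of 18 tested clustered protocadherin genes, which encode adhesion molecules that give neurons a surface identity, 2 rose, and none did with runs of animal numbers as a block. Pcdhb17 was at 24.1, 23.9 and 21.5 CPM in G34V and 14.8 to 19.4 CPM (median 17.95) in WT (log2 fold change 0.41, SE 0.09, edgeR adjusted p = 0.0133). Pcdhb21 was at 7.99, 8.03 and 8.702 CPM against 5.86 to 7.39 CPM (median 6.27, log2 fold change 0.36, SE 0.099, edgeR adjusted p = 0.0483). Members of the cluster share sequence, so counts can be split between copies. Htr3a, the serotonin-gated channel of a class of interneurons, rose to 8.79, 6.12 and 7.099 CPM from 4.34 to 6.18 CPM (median 5.16, log2 fold change 0.51, SE 0.14, edgeR adjusted p = 0.0466). Esam, an adhesion molecule of endothelial junctions, was the only one of 19 endothelial genes to pass and fell, to 6.85, 8.29 and 7.12 CPM from 8.83 to 11.4 CPM (median 9.98, log2 fold change -0.43, SE 0.11, edgeR adjusted p = 0.0256). Of 20 cell cycle genes Rrm2, a subunit of ribonucleotide reductase, rose, to 2.18, 2.83 and 2.56 CPM from 1.35 to 1.91 CPM (median 1.6996, log2 fold change 0.62, SE 0.16, edgeR adjusted p = 0.0324). With the block no gene of the interneuron, endothelial or cell cycle lists passed. Calls ended for Pcdhb17 without G34V animal 1 or 2 (0.0818 and 0.0767), Pcdhb21 without G34V animal 1, 2 or 3 or WT animal 2, 3, 4, 5 or 6 (0.06403 to 0.198), Htr3a without G34V animal 1 or 3 or WT animal 1, 2, 3, 4 or 6 (0.0517 to 0.331), Esam without G34V animal 1 or 3 or WT animal 5 (0.05305 to 0.152), and Rrm2 without G34V animal 2 or 3 or WT animal 3 or 5 (0.0634 to 0.184) (edgeR adjusted p).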
